A study of Mus musculus with 6 samples.

Results

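Histone deacetylases of classes I and II are the 10 genes Hdac1 to Hdac10, chosen by symbol from the 21883 protein-coding genes of RefSeq GRCm38. The cells were B16, an established melanoma line of the mouse, and their chromatin was profiled by CUT&Tag, in which an antibody held on its target guides a transposase that cuts and tags the DNA beside it. Peak lists of 2 libraries were used, both labelled wild type (WT), 1 for H3K4me3 and 1 for p300, with 1 library each. No agent, time or further allele is given for either in the labels. H3K4me3, trimethylated lysine 4 of histone H3, marks active promoters, and p300 is a histone acetyltransferase found at active enhancers and promoters. With 1 library per antibody there was no replicate check and no test, and the values describe these 2 libraries of 1 cell line.

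Histone deacetylases remove acetyl groups from lysines of histones and other proteins and so oppose acetyltransferases such as p300. Class I enzymes (Hdac1, Hdac2, Hdac3 and Hdac8) are mostly nuclear, and the first 3 are the catalytic subunits of corepressor complexes. Class IIa enzymes (Hdac4, Hdac5, Hdac7 and Hdac9) have little catalytic activity of their own, bind MEF2 transcription factors and move between nucleus and cytoplasm when kinases phosphorylate them, and class IIb (Hdac6 and Hdac10) acts largely in the cytoplasm.

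The lists held 27019 H3K4me3 peaks and 6512 p300 peaks on the nuclear chromosomes. A peak is given by the fold enrichment that the authors deposited, which is the ratio of its summit to a background, and by the reads at the summit and in that background, which were solved from the deposited values. The median summit had 80.0 reads in the H3K4me3 list and 39 in the p300 list, and the lowest had 15 and 14. The cell line's label was checked on marker genes: H3K4me3 lay at an annotated end of 6 of 7 pigment cell marker genes (Mitf, Sox10, Pmel, Tyr, Tyrp1 and Dct, but not Mlana, which had it inside the gene). It lay at an end of 0 of 12 markers of epithelial, blood, endothelial, liver, heart and nerve cells, of which Pecam1 had it inside the gene.

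All 10 deacetylase genes carried H3K4me3 in the gene or within 1 kb of it, and p300 was found in 3 of them. Over all protein-coding genes these shares were 58.9% and 20%. At an annotated gene end (within 1 kb of either end) H3K4me3 lay at 7 of the 10, where 50.5% of all genes had it, and p300 at 1 of the 10, Hdac10, where 13.5% of all genes had it. Counting the gene and 50 kb to either side, 5 of the 10 had p300, against 44.2% of all genes, and counted only from the annotated ends 4 had it, against 43.6%. With 10 genes, these counts of p300 lay near the background. The genes without H3K4me3 at an end were Hdac4, Hdac7 and Hdac9, all of class IIa, and in Hdac4 and Hdac7 it met the promoter of a start site inside the annotated span. In bulk cells, fewer cells with a mark and less of it per cell cannot be told apart.

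**Figure D1:**
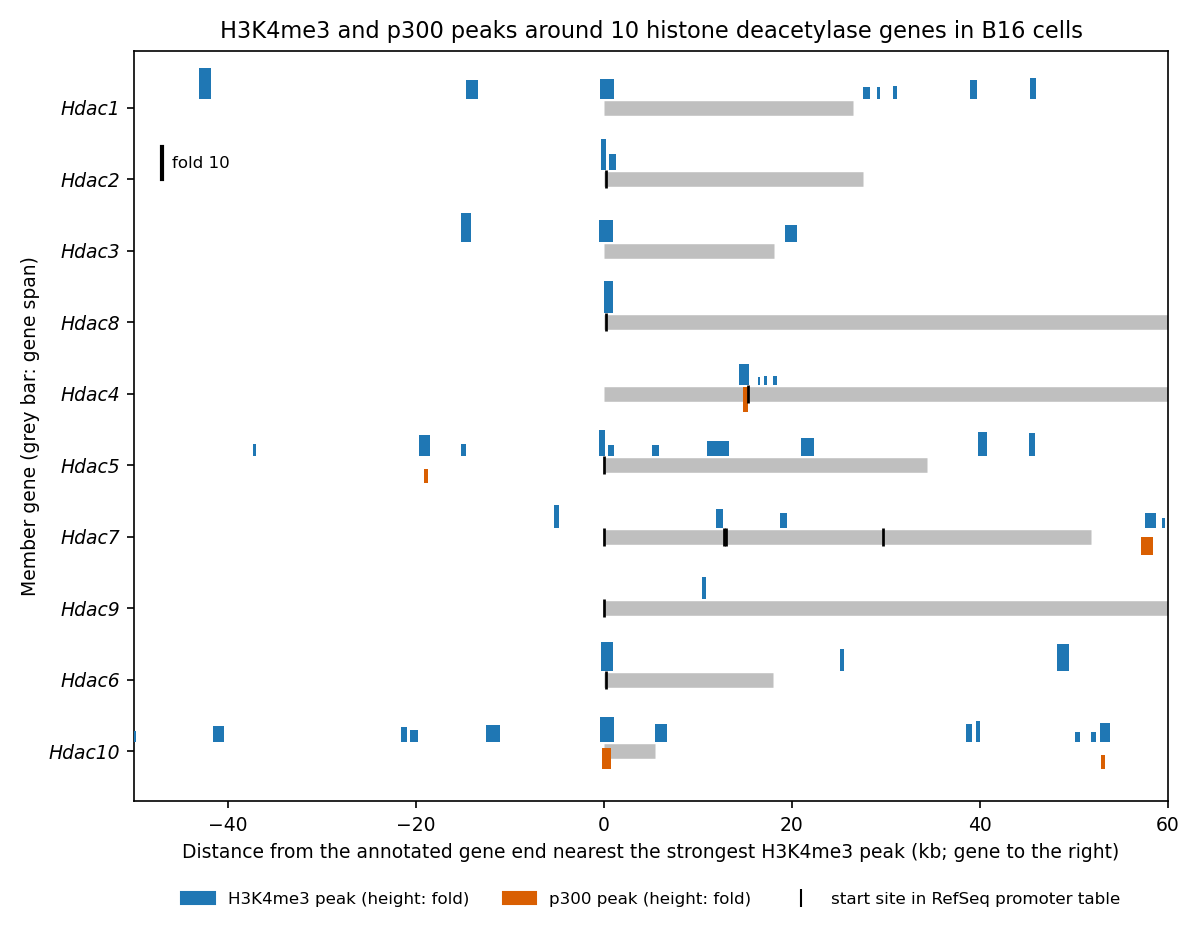
Peaks of H3K4me3 (blue, above) and p300 (orange, below) around each deacetylase gene, drawn by distance in kb from the annotated end nearest the strongest H3K4me3 peak of the gene, with the gene to the right as a grey bar and bar height as fold enrichment. Of the 10 genes, 7 have a blue peak at distance 0, and Hdac4 and Hdac7 have blue peaks near a start site (black tick) inside the span. The blue peak of highest fold in Hdac4 lies beyond the 60 kb drawn. The orange peaks that touch a grey bar within 60 kb are those of Hdac4 and Hdac10.

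RefSeq start sites with their promoter letters were given for 7 of the 10 genes, in 11 windows that run from 250 bases before to 50 bases after a start. Hdac1, Hdac3 and Hdac10 had no entry. Of the 7 genes, 6 had H3K4me3 over a window, against 47.8% of the 17491 protein-coding genes of the table. Only Hdac4 of the 7 had p300 over one, against 12.4% of all genes. That was 1 of the 6 with H3K4me3 there, against 25.5% of all genes with H3K4me3 over a window. The windows of Hdac4, Hdac6, Hdac8 and Hdac9 are shown because they span the range of what was found: both marks at Hdac4, H3K4me3 alone at Hdac6 and at the CpG-poor start of Hdac8, and neither at Hdac9. They are RefSeq sequence of GRCm38.p6, 5′ to 3′ on the minus strand, on which these genes lie, and capitals mark a match on either strand to the GC box GGGCGG, to the box CCAAT, to the TATA box TATAAA or to another of the motifs searched.
Hdac4, chr1:92180292-92180591: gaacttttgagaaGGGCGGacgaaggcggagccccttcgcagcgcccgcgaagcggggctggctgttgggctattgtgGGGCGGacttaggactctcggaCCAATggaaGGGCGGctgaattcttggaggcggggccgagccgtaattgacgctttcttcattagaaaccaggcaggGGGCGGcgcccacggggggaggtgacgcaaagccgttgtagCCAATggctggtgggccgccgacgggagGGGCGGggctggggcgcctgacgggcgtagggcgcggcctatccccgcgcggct
Hdac6, chrX:7947840-7948139: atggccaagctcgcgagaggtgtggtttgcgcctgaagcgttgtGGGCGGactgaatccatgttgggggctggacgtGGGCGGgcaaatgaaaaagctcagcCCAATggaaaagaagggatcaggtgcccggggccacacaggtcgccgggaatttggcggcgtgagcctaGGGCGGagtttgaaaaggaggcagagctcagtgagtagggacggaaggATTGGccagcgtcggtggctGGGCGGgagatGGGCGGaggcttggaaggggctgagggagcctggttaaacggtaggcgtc
Hdac8, chrX:102505109-102505408: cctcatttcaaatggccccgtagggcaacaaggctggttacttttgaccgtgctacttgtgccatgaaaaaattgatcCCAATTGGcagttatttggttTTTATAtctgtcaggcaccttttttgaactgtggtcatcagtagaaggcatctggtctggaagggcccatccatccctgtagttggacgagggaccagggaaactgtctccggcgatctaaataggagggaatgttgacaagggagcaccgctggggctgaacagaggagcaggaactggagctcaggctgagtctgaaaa
Hdac9, chr12:34917046-34917345: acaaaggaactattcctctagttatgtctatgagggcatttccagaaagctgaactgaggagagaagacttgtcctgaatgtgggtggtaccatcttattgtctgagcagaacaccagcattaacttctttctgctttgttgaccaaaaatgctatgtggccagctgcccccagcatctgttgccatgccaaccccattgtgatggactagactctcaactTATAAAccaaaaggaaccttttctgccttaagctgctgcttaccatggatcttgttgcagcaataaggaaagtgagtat

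The windows of Hdac4 and Hdac6 both held 5 GC boxes and 2 CCAAT boxes. Of all 21262 windows of protein-coding genes, 46.2% held a GC box and 38.2% a CCAAT box, and only 75 (0.353%) held at least as many of both. Of these 75 windows 64 (85.3%) met H3K4me3, against 45.7% of all windows. p300 was met by 28 of the 75 (37.3%), against 11.7% of all windows. Of all windows with H3K4me3 25.0% met p300, but not all of the 75 had H3K4me3, so these 2 shares have unlike bases. The cut was taken from the windows of Hdac4 and Hdac6 themselves, and these differences were not tested. Hdac6 was thus among the windows with H3K4me3 and without p300, and Hdac4 among those with both. The other motifs searched on both strands were the palindromic NRF1 site, in 1.33% of windows, the CRE TGACGTCA, in 2.23%, the E-box CACGTG, in 7.84%, the AP-1 site TGANTCA, in 6.99%, and the ETS core CCGGAAGT, in 5.15%. The TATA box letters were in 12.6%. A match describes the letters and does not show a bound site. Among the 11 windows, an E-box was found at Hdac5, an AP-1 site in the inner window of Hdac9 and the lowest of Hdac7, and the TATA box letters in the windows of Hdac8 and Hdac9 printed above.

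The windows also differed in CpG content. Windows of all genes held a median of 21 CpG under H3K4me3 and 5 without it. Hdac2 held 36, Hdac4 32, Hdac6 20 and Hdac5 18, all under H3K4me3. Hdac9 held 0 in the upper window and 3 in the inner one, and neither met H3K4me3. The Hdac8 window was marked although poor in CpG. It held 6 CpG, and of the 7590 windows with at most 6 only 7.51% met H3K4me3, yet an H3K4me3 peak covered all 300 bases of it. Of the 4 windows of Hdac7, that with 35 CpG met H3K4me3 and those with 5, 6 and 31 did not. Of all windows with at least 31 CpG, 63.8% met it, so a CpG-rich window without it was no exception.

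The H3K4me3 peaks at the promoter window, or across the annotated end in Hdac1, Hdac3 and Hdac10, were put in order of the reads at their summits. Hdac10 came first with 294 reads (exact 95% Poisson interval 261 to 329.6). Hdac4 followed with 181 (156 to 209), Hdac5 with 169 (144 to 196), Hdac2 with 141 (119 to 166) and Hdac3 with 133 (111 to 158). The lower part of the order was Hdac7 with 105 reads (85.9 to 127), Hdac6 with 95 (76.9 to 116), Hdac1 with 85 (67.9 to 105) and Hdac8 with 69 (53.7 to 87.3). Hdac9 had no such peak, and its only one, inside the gene, held 24 reads (15.4 to 35.7). The intervals of neighbours in this order overlapped, apart from the steps between Hdac10 and Hdac4 and between Hdac8 and Hdac9. They cover counting error only and take each read as an independent molecule. Where copies made by PCR remained among the reads, the intervals are too narrow. By fold the order was another one, with Hdac8 first at 10.1 and Hdac7 lowest at 5.88. The background differed from 5.93 reads at Hdac8 to 36.5 at Hdac10.

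**Figure D2:**
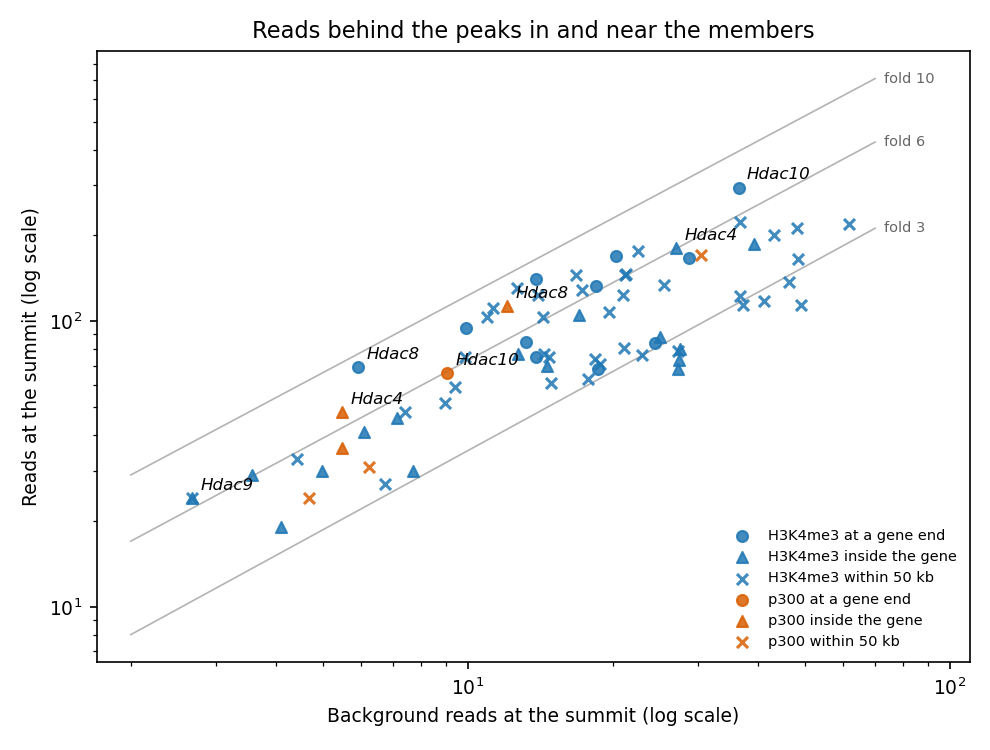
Reads at the summit against background reads at the same place, both on log scales, for each H3K4me3 (blue) and p300 (orange) peak in or within 50 kb of the deacetylase genes, with grey lines of equal fold. The H3K4me3 peak at the end of Hdac10 is highest with 294 reads, while the peak inside Hdac9 and that at the end of Hdac8 reach folds of 6.78 and 10.1 with 24 and 69 reads over low backgrounds.

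Hdac1 (chromosome 4, 129516104 to 129542646), the catalytic subunit of the NuRD, SIN3 and CoREST complexes, carried H3K4me3 across its upper end, the one of higher coordinate. The peak ran from 129541634 to 129543054, with a fold of 6.06 and 85 reads over 13.2. A second and weaker peak of fold 3.52 lay 987 bp below the lower end, and came within 1 kb of an end of the neighbour Marcksl1 too. No p300 peak lay in the gene, and the nearest was 129797 bp away. Among the 11041 genes with H3K4me3 at an end, 29.1% had a lower fold than Hdac1.

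Hdac2 (chromosome 10, 36974297 to 37001889), which works in the same complexes, had a pair of H3K4me3 peaks on the sides of its start site and none across it. The first, 616 bp wide and of fold 9.57 with 141 reads, lay across the annotated lower end of the gene. It ended 3 bp before the RefSeq start site at 36974544, which lies inside the annotated span. The other peak, 752 bp wide and of fold 5.11 with 75 reads, began 299 bp after that start site. The side before the start was thus the stronger, both in fold and in reads. These were the only H3K4me3 peaks in the gene or within 50 kb of it, and the nearest p300 peak lay 138816 bp from the gene.

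Hdac3 (chromosome 18, 37936971 to 37955015), the enzyme of the NCoR/SMRT complex, had 1 H3K4me3 peak of 1525 bp across its upper end. It had a fold of 6.88 with 133 reads over 18.5, and it also came within 1 kb of an end of Rell2. Of the genes with H3K4me3 at an end, 79.3% had a narrower widest peak, so Hdac3 was among the broader. The nearest p300 peak, of fold 6.07, lay 52781 bp from the gene, just outside the 50 kb counted.

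Hdac8 (chromosome X, 102284638 to 102505381), which acts outside these complexes and is known for deacetylating the cohesin subunit SMC3, was the class I gene with p300. Its H3K4me3 peak of 1011 bp lay over the start site, with the summit 9 bp from it, and the lncRNA gene Gm32262 has an end within 1 kb of the same peak. The fold of 10.1 was the highest of all deacetylase genes at an end, and 87.1% of genes with such a peak had a lower one, but its 69 reads were more than those of only 13.1% of them. Peaks on chromosome X had a median background of 6.49 reads, against 12.4 on the autosomes, and a median fold of 7.58 against 6.21. The part of chromosome X in the high fold of Hdac8 was not tested. Hdac6, also on X, had the next lowest background of these promoter or end peaks, 9.90 reads.

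The p300 peak of Hdac8 lay deep inside the gene. It ran from 102402063 to 102403044, 102337 bp from the nearer end, and no H3K4me3 peak overlapped it. With a fold of 8.72 and 113 reads over 12.1 it stood at rank 312 of 6512 by −log10 q, which was 64.0, and at rank 411 by fold. Of the 944 p300 peaks without H3K4me3, 54 had a fold and 34 a −log10 q as high or higher, counting this peak. Gm32262 is annotated over the same place, and no protein-coding gene other than Hdac8 lay within 1 kb. Of the 989 protein-coding genes of 200 kb or more, a length chosen after the data were seen, 35.1% had p300 in the gene or within 1 kb. Hdac4, Hdac8 and Hdac9 are this long, and Hdac4 and Hdac8 had it. All 3 had H3K4me3 in the gene, against 70.5% of these long genes, 1 had it at an end, against 44.2%, and 0 had p300 at an end, against 7.79%.

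Hdac4 (chromosome 1, 91928779 to 92195702), a class IIa enzyme that binds MEF2 factors, had the most peaks inside the gene, 10 for H3K4me3 and 2 for p300. Of the 10 H3K4me3 peaks, 7 had a −log10 q of at least 10, and only 2 were in the stronger 50% of the list by fold. Long genes had a median of 2 H3K4me3 peaks in the span, and 49 of the 989 had 10 or more. The strongest by reads lay over the RefSeq start site, 14412 bp inside the annotated upper end. It was 990 bp wide with a fold of 6.50 and 181 reads over 27.0, a read count above that of 90.3% of all H3K4me3 peaks. A p300 peak of 544 bp, fold 7.56 and 48 reads over 5.48 lay wholly inside it, and the summits of both marks were 4 bp apart. Both summits lay upstream of the start, by 306 bp for H3K4me3 and 310 bp for p300, just outside the window printed above.

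Just downstream of that start, 3 small H3K4me3 peaks of Hdac4 followed with folds of 2.44 to 2.83. They held 68 to 80 reads over backgrounds of 27.3 to 27.6, so their folds were in the low tail of the list while their reads were near its median. Deeper in the gene lay 6 more H3K4me3 peaks, with folds of 3.57 to 6.58 and 19 to 46 reads. One of these, from 92103344, of fold 3.57, shared 96 bp with the second p300 peak, which ran from 92103748 to 92104213 with a fold of 5.70 and 36 reads. The summits of this pair were 492 bp apart, so here the marks lay side by side, whereas at the start of Hdac4 they coincided.

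Hdac5 (chromosome 11, 102195747 to 102230172), a close relative of Hdac4, had 5 H3K4me3 peaks in the gene, 14.5 per 100 kb, and no p300 peak. The peak over the start site covered the whole promoter window, with a fold of 7.99 and 169 reads over 20.3. The microRNA gene Mir8101 has an end within 1 kb of this peak. A peak of 2344 bp, the widest in any of the 10 genes, lay 10922 bp inside the upper end with more reads, 187, but a fold of 4.67, since its background was 39.2 reads. The nearest p300 peak, of fold 4.40 and 24 reads, lay 18731 bp above the gene at an end of Hrob and inside the H3K4me3 peak of that gene.

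Hdac7 (chromosome 15, 97792661 to 97844502), the class IIa member known from blood vessel and thymocyte development, had 4 start windows in RefSeq, of which 1 met H3K4me3. That peak, of fold 5.88 with 105 reads, ended 84 bp before the start and covered 167 of the 300 bases of the window from 97831718 to 97832017, which held 35 CpG. The lncRNA gene Gm33636 is annotated over the same place or within 1 kb of it. The next window below, with 31 CpG, was 106 bp short of the peak. The windows at the annotated upper end and nearest the lower end held 6 and 5 CpG and were 4587 and 9910 bp from the nearest H3K4me3 peak. H3K4me3 thus met a promoter inside the gene and not the one at the annotated end. No p300 peak lay in Hdac7, and the nearest, of fold 5.46 with 171 reads over 30.5, lay 5342 bp below it inside or within 1 kb of Slc48a1, with 856 bp of it under H3K4me3.

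Hdac9 (chromosome 12, 34047580 to 34917095), the class IIa member with a known short form that lacks the catalytic domain, was the least marked of the 10 genes and the longest, at 869.5 kb. Its only H3K4me3 peak, 452 bp wide, lay 10376 bp inside the upper end, with 24 reads over a background of 2.68 reads, as low as any in the list. The fold of 6.78 was above that of 59.1% of all H3K4me3 peaks, while only 5.06% of peaks had fewer reads. Neither start window met a peak, and no p300 peak lay within 156643 bp of the gene. Of the 85 genes as long or longer, 52 had at most 1 H3K4me3 peak in the span and 63 no p300 peak, so sparse marking was found in most genes of this length.

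**Figure D3:**
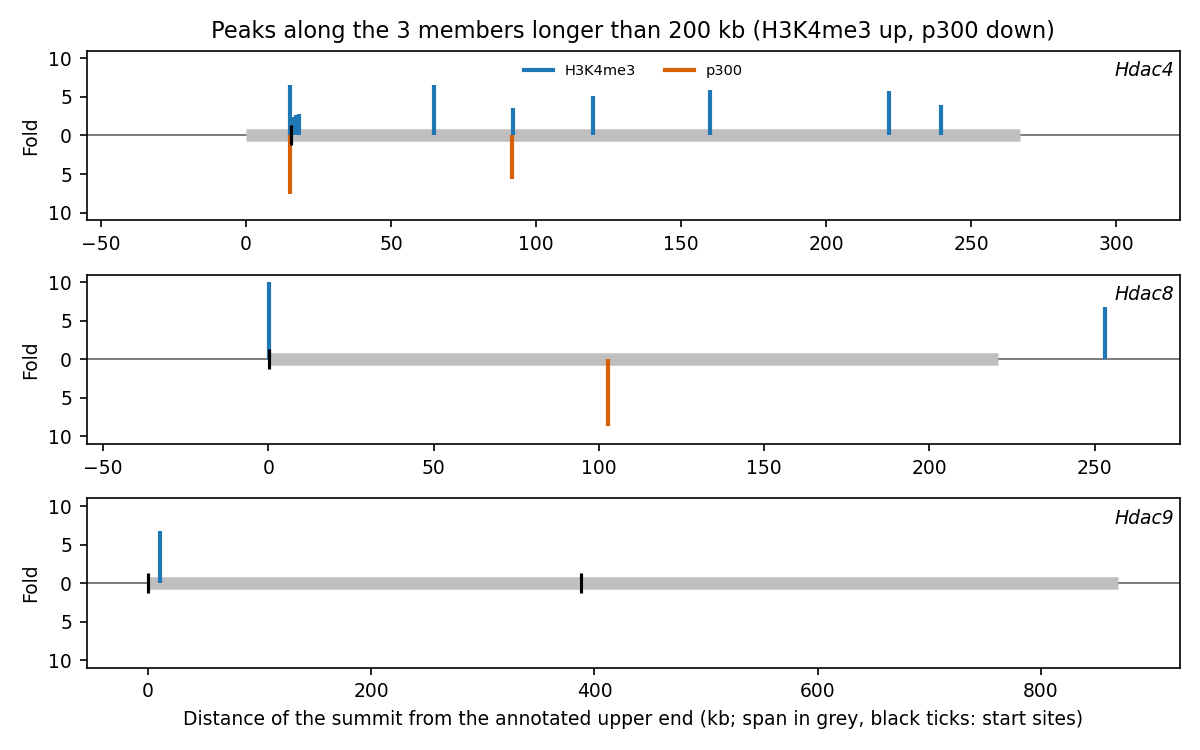
Fold enrichment of each peak (H3K4me3 upward, p300 downward) along the 3 deacetylase genes of 200 kb or more, by distance in kb of the summit from the annotated upper end, with the span in grey and RefSeq start sites as black ticks. Hdac4 has 10 H3K4me3 and 2 p300 peaks in its span, Hdac8 has 1 of each, far apart, and Hdac9 has 1 H3K4me3 peak.

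Hdac6 (chromosome X, 7930116 to 7948047), the class IIb enzyme that deacetylates alpha-tubulin, HSP90 and cortactin in the cytoplasm, had 1 H3K4me3 peak in the gene. It was 1219 bp wide, of fold 8.81 with 95 reads over 9.90, covered the whole promoter window and had its summit 23 bp after the start. No p300 peak lay in the gene, and the nearest was 88388 bp away. The lncRNA gene Gm39488 has an end within 1 kb of this H3K4me3 peak too. Its 1 peak came to 5.58 per 100 kb of span, where the 10 of the longer Hdac4 came to 3.75 and the 5 of Hdac5 to 14.5. Hdac1, Hdac3, Hdac8, Hdac9 and Hdac10 also had 1 H3K4me3 peak in the span.

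Hdac10 (chromosome 15, 89123303 to 89128700), the class IIb enzyme known as a polyamine deacetylase, is the shortest of the 10 genes and was the only one with p300 at an annotated end. An H3K4me3 peak of 1487 bp lay across its upper end with a fold of 7.87 and 294 reads over 36.5. Its −log10 q of 152.5 placed it at rank 345 of 27019, and 99.3% of H3K4me3 peaks had fewer reads. A p300 peak of 987 bp, fold 6.67 and 66 reads over 9.04 lay wholly inside it, and both marks had their summit at the same base. The lncRNA gene Gm46530 has an end within 1 kb of this pair of peaks. Another H3K4me3 peak, of fold 5.64, ended 20 bp below the lower end of Hdac10 and came within 1 kb of an end of Tubgcp6. A second p300 peak of fold 4.42 lay 47478 bp below the gene, at an end of Trabd.

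Of the 4 p300 peaks in the deacetylase genes or within 1 kb, 3 overlapped H3K4me3, and of all 4735 p300 peaks in or near protein-coding genes 88.9% did. Their pairings differed: the summits coincided or nearly so at the upper end of Hdac10 and the promoter of Hdac4, the peaks met only at their edges inside Hdac4, and p300 stood alone inside Hdac8. In the other direction 3 of the 27 H3K4me3 peaks in these genes or within 1 kb overlapped p300, and of all 20536 H3K4me3 peaks in or near protein-coding genes 21.1% did. Among the 7 genes with H3K4me3 at an end, 1 had p300 at an end, against 26.5% of all genes with H3K4me3 there.

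The partners of these enzymes carried H3K4me3 at their ends too. Of 41 genes for subunits of corepressor complexes, 39 had it, against 50.5% of all protein-coding genes. They were 12 of 13 for NuRD, 13 of 13 for SIN3, 10 of 10 for CoREST and MiDAC and 4 of 5 for NCoR/SMRT. The exceptions were Chd5, a NuRD helicase, and Tbl1xr1, an NCoR/SMRT subunit, which had a peak of fold 6.38 and 4.11 inside the gene. p300 lay at an end of 13 of the 41 (31.7%). All 13 were among the 39 with H3K4me3 there, and the share was near the 26.5% of all genes with H3K4me3 at an end. Of all protein-coding genes 13.5% had p300 there. Among the 10 deacetylase genes 1 had it, and this difference from the 41 was not tested. In NuRD the genes with p300 at an end were Gatad2a with a fold of 9.84, Rbbp4 with 6.23, Gatad2b with 5.37 and Mbd3 with 4.16. In SIN3 they were 6 genes, led by Arid4a with 7.29, Arid4b with 7.27 and Sap30 with 6.77. Rcor1 and Rcor3 of CoREST, with 5.64 and 5.80, and Tbl1x of NCoR/SMRT, with 5.32, were the others.

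Deacetylases of other classes had p300 at an end in 5 of 8 cases, where 13.5% of all protein-coding genes had it. Of all genes with H3K4me3 at an end 26.5% had it, a base that would leave out Sirt4. Hdac11, the class IV enzyme, had H3K4me3 of fold 8.90 and p300 of fold 5.00 at an end. Among the NAD-dependent sirtuins, p300 lay at an end of Sirt3 with a fold of 6.25, Sirt2 with 5.87, Sirt7 with 4.48 and Sirt4 with 3.45. H3K4me3 was at an end of 7 of these 8 genes, against 50.5% of all protein-coding genes, and Sirt4 had it inside the gene. A difference in p300 between these genes and Hdac1 to Hdac10 was not tested.

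The partners of class IIa were a mixed list. It held 14 genes for MEF2 factors, the kinases that phosphorylate class IIa enzymes and the 14-3-3 proteins that hold them in the cytoplasm. Of these 14, 9 had H3K4me3 at an end, against 50.5% of all protein-coding genes. Mef2a, Mef2c, Mef2d, Camk4 and Prkd1 did not, although all of them except Prkd1 had it inside the gene. Mef2c had 9 H3K4me3 and 4 p300 peaks in the gene or within 1 kb, the strongest of fold 9.59 and 6.84. Among the 14 listed genes, 4 carried p300 at an end, against 13.5% of all protein-coding genes. All 4 belonged to the 9 with H3K4me3 at an end, and the matching share of all genes with H3K4me3 there was 26.5%. Neither comparison was tested. These 4 were Camk2d with a fold of 7.80, Ywhag with 7.61, Ywhab with 5.80 and Sik2 with 5.27. All 6 genes for partners and substrates of HDAC6 had H3K4me3 at an end, against 50.5% of all protein-coding genes. Of these 6 genes 4 had p300 there, against 13.5% of all genes and 26.5% of those with H3K4me3 at an end. With 6 genes this was not tested. The 4 with p300 were Vcp with 7.95, Tuba1a with 4.58, Hsp90aa1 with 4.09 and Sqstm1 with 3.01.

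**Figure D4:**
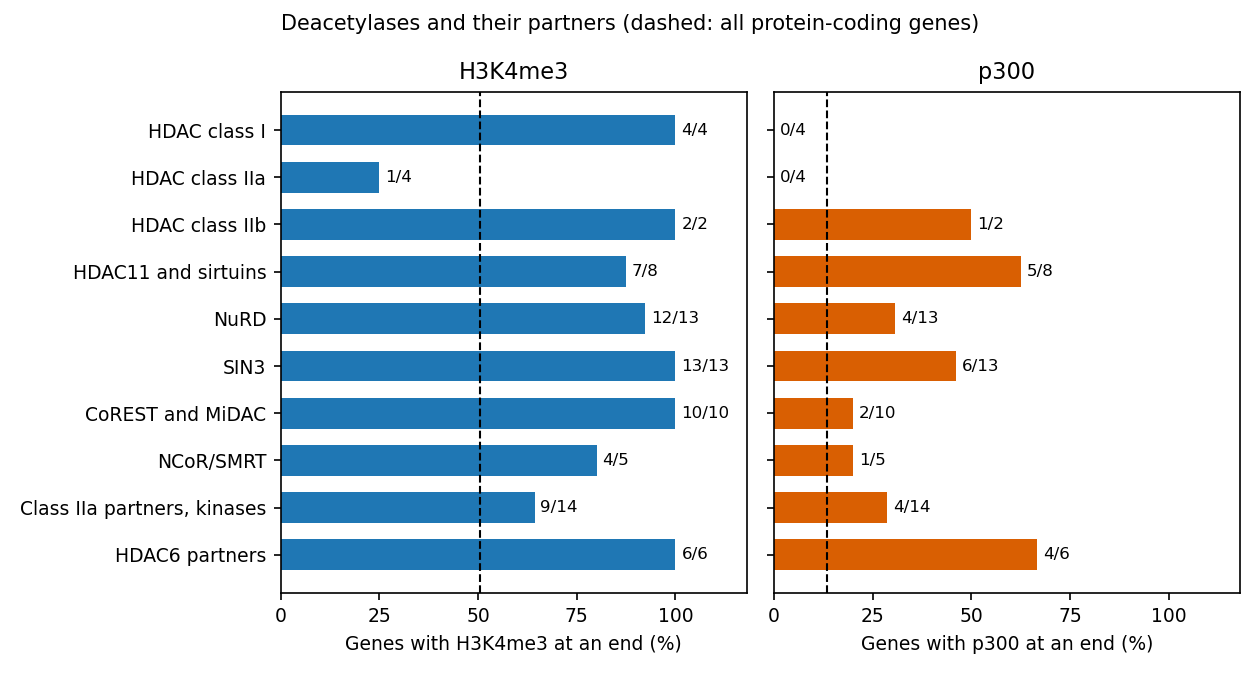
Share of genes with H3K4me3 (left) and p300 (right) within 1 kb of an annotated end, in percent, for the classes of deacetylases and the lists of their partners, with counts beside the bars and the share of all protein-coding genes as a dashed line. H3K4me3 is at an end of all genes of classes I and IIb and of 1 of 4 in class IIa, and p300 at an end of 1 of the 10 deacetylase genes, in class IIb.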

How the data were processed

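The submitters' processing notes name mm10 as the genome build, and Picard 2.22.4, Trim Galore, deepTools and Bowtie2 2.2.5 as tools. Which program called the peaks, with what filters and against which control, is not stated in the labels or files. The authors deposited 1 narrowPeak list per library, with a score, a fold enrichment (a ratio), −log10 p and −log10 q per peak and the summit position. The fold and −log10 q values are the authors' and served to rank, filter and describe peaks inside their own list.

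Samples were grouped by title. The 4 H3K9me3 libraries were not analysed here. Gene positions came from RefSeq GRCm38.p6, whose chromosomes are those of mm10. Peaks on scaffolds and the mitochondrial chromosome (24 and 17) were left out. An overlap needed at least 1 bp. Summit and background reads were solved from a Poisson tail and a fold of (summit + 1) over (background + 1). With the summit set to a whole number of reads, the deposited −log10 p was met to within 0.002 at 99.98% of peaks in the H3K4me3 list and 99.97% in the p300 list, and the solver was tested on simulated data. Python 3.11.15 and scipy 1.17.1 were used.

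The deacetylase genes and all lists were chosen with earlier results of these data known. Text names all 10 genes, and of the partner lists the minorities of 4 or fewer and up to 3 with the highest p300 fold at an end; other partners named were chosen after their values were seen. Alternatives were other windows, stricter peaks and other overlaps.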

Additional observations from a re-analysis of the deposited data

How the results depend on the processing

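The counts of deacetylase genes with H3K4me3 at an end (6 or 7), with H3K4me3 in the gene (8 to 10), with p300 at an end (1) and with p300 in the gene or within 1 kb (3) stayed within 1.5 times under every alternative run for them: windows of 500 bp and 2 kb, a −log10 q of at least 10, the stronger 50% of each list by fold, and the summit inside the window. The count with p300 within 50 kb, 5, was 4 with a −log10 q of at least 10, where Hdac5 was lost. It fell to 3 in the stronger 50% by fold, where Hdac5 and Hdac7 were lost. It was 7 with 100 kb and, in an alternative chosen after seeing the data, 4 when only distance from an annotated end was counted, which leaves out Hdac8. With the p300 summit required inside the promoter window, the count of 1 of 7 became 0, since the summit at Hdac4 lies upstream of the window. For H3K4me3 the same demand took 6 to 5. The 3 of 4 p300 peaks that overlapped H3K4me3 became 2 of 4 with 50% of the p300 peak covered. It was also 2 of 4 with the p300 summit inside H3K4me3 and with a −log10 q of at least 10. In the stronger 50% by fold it was 2 of 3. Of 260 values for single genes, 229 stayed within 1.5 times, including genes that had no peak in the main count and none in the alternative. Such a gene cannot gain a peak under stricter peaks or a narrower window, so part of the 229 was fixed beforehand. Of 31 that moved, 26 were lower. No paired analysis was possible because each antibody has 1 library. The lists stop at a −log10 q of 5.04 for H3K4me3 and 5.11 for p300, so a place without a listed peak was not called at that level, which does not show that the mark is absent there. Strand and exons came with no table used here apart from the promoter windows.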
